A study of Mus musculus with 11 samples.

Results

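Müller glia are the main support cells of the retina, and 10 genes that mark them or that rise in them when the retina is stressed were read in whole eyes of WT and miR-211-/- (KO) mice. The genes were chosen by name, as Glul, Slc1a3, Kcnj10, Aqp4, Sox9, Vim, Gfap, Serpina3n, Lcn2 and Edn2, and they are 10 of the 38393 genes counted in each library. All 10 passed the filter of at least 1 CPM (counts scaled to a common library size, the usual unit of expression filters) in at least 5 libraries and so belong to the 15767 genes tested. RNA came from eyes of C57BL/6 mice (C57Bl/6J in the methods of the study) aged 1–2 months, with retina, retinal pigment epithelium (RPE), choroid, sclera and ciliary body kept and lens and cornea taken off. The 5 WT libraries came from mice with an intact miR-211 gene, and the 6 KO libraries from mice that lack the stretch of DNA holding the miR-211 precursor in every cell, so that the loss is not confined to the retina or to glia. Controls were littermates of the same age according to the methods of the study, which also give every KO animal as male and the WT animals as of both sexes. In bulk tissue, fewer cells of a type and less RNA per cell cannot be told apart.

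Müller glia span the whole thickness of the neural retina, take up glutamate released by photoreceptors and neurons, carry away potassium and water, and turn glutamate into glutamine. When the retina is injured or photoreceptors are in distress, they enter gliosis, in which filament proteins such as GFAP build up. One well-known route to this state runs from stressed photoreceptors, which make endothelin 2, and from the cytokine LIF through its receptor and the transcription factor STAT3 to genes such as Gfap. miR-211 and its close relative miR-204 are short RNAs that lower the output of messenger RNAs by pairing their seed with sites that lie mostly in 3′ untranslated regions (UTRs).

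Both mature miRNAs are shown because they share the seed through which targets would be recognised, with the seed, bases 2 to 8, in capitals. They are RefSeq entries and lie at chr7:64205831-64205852 (miR-211-5p, plus strand) and chr19:22750610-22750631 (miR-204-5p, plus strand) of GRCm38.
mmu-miR-211-5p: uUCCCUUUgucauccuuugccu
mmu-miR-204-5p: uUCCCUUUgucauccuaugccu
They differ at 1 base, U17A from miR-211-5p to miR-204-5p, counted from the 5′ end.

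The DNA letters that pair with this seed, AAAGGGA, were found in the 3′ UTR of 3 of the 10 genes, Gfap, Slc1a3 and Kcnj10, and in 14.9% of the 21027 genes with an annotated 3′ UTR, of whatever length. The 4 places are given on the strand of the gene with the matching letters in capitals, since they are the letters of these genes that a seed of this family could pair with. For each gene the longest 3′ UTR of the Gencode M21 annotation was read. In Gfap the letters stood at bases 385 to 391 of a 3′ UTR of 1341 bases (window chr11:102888275-102888303, minus strand), and in Slc1a3 at bases 997 to 1003 of 2008 (chr15:8635118-8635146, minus strand). In Kcnj10 they stood at bases 2899 to 2905 and 3009 to 3015 of 4025 (chr1:172372948-172372976 and chr1:172373058-172373086, plus strand).
Gfap: aattcagacagAAAGGGAaagtccctgag
Slc1a3: ccaacattacaAAAGGGAggattctttga
Kcnj10 first: cagactttaacAAAGGGAcaaatattttg
Kcnj10 second: tgcttgatggaAAAGGGAgggctagaccc
The 3′ UTRs of the other 7 genes do not hold these letters. A match is a description of the letters and not a shown site of binding.

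The libraries held from 20282241 to 36317673 counted read pairs. No read of Mir211 was counted in any library of either genotype (0 in each of the 11), so the counts do not check the deletion. Its host gene Trpm1 lay between 331 and 496 CPM in the WT libraries and between 413 and 465 CPM in the KO libraries. Some libraries stood apart. WT replicate 1 was more than 2-fold above all other libraries for 132 genes, while no other library exceeded 45 such genes. The corneal keratin Krt12 was at 4.26 CPM in WT replicate 1 but at 406 to 3514 CPM in every other library, although the cornea had been taken off. In WT replicate 1, 4 of the 8 ocular surface genes (Krt15, Krt14, Krt13 and Krt4) were highest, 2 of them, Krt15 and Krt14, by more than 2-fold. The summed level of 16 lens genes reached 141800 CPM in replicate 4 of WT, and 31030 and 4191 CPM in replicates 3 and 6 of KO, against 126 to 298 CPM in the other 8 libraries, although the lens had been removed. Xist, which is made in female cells, was over 100 CPM in 3 libraries, WT replicates 1, 3 and 5, and at 0.45 and 0.85 CPM in WT replicates 2 and 4. Sex and genotype are thus in part confounded, and sex entered no fit. Column headings of a supplementary table of the study name some libraries by mouse number and others by age. By their counts, WT replicates 1 and 2 and KO replicates 1 to 3 belong to the first series, and WT replicates 3 to 5 and KO replicates 4 to 6 to the second.

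All 10 genes were read in every library. Levels between genes are compared per length, in FPKM (fragments scaled for gene length and library size), as the mean over the 10 libraries other than WT replicate 1. Glul, at 718 FPKM, was followed by Vim (145), Gfap (83.1), Slc1a3 (40.2), Serpina3n (25.5), Aqp4 (18.9), Kcnj10 (12.9), Edn2 (6.07), Sox9 (4.82) and Lcn2 (4.40). The ranges over all 11 libraries were apart for only 2 neighbouring pairs in this order, Glul with Vim and Gfap with Slc1a3. Aqp4 exceeded Kcnj10, and Vim exceeded Gfap, within each of the 11 libraries. Edn2 exceeded Sox9 in 5 of 11 libraries and Sox9 exceeded Lcn2 in 6 of 11, so these neighbours had no stable order.

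None of the 10 genes was called between KO and WT by edgeR's likelihood-ratio test at an adjusted p under 0.1, where 0.00634% of all genes tested were called, which is 1 gene, Xist. At an unadjusted p under 0.05, 3 of the 10 genes, Lcn2, Serpina3n and Gfap, were lower in KO, beside 1.77% of all genes tested, and 0 were higher, beside 0.323%. The quasi-likelihood test of edgeR and DESeq2 called none of the 10 either, and DESeq2 gave no adjusted p for Lcn2 and Serpina3n. Without WT replicate 1, again 0 of 10 were called at an adjusted p under 0.1 (0.00637% of all genes), 0 were lower at an unadjusted p under 0.05 (0.841%), and 1, Edn2, was higher (0.185%). The median log2 fold change of the 10 genes was -0.19 with all libraries and -0.08 without WT replicate 1, beside 0.00 over all genes tested in both cases. All p-values measure the spread among these libraries, which the labels number as replicates, and from here values are CPM on TMM-scaled library sizes unless a sentence names another scale.

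**Figure D1:**
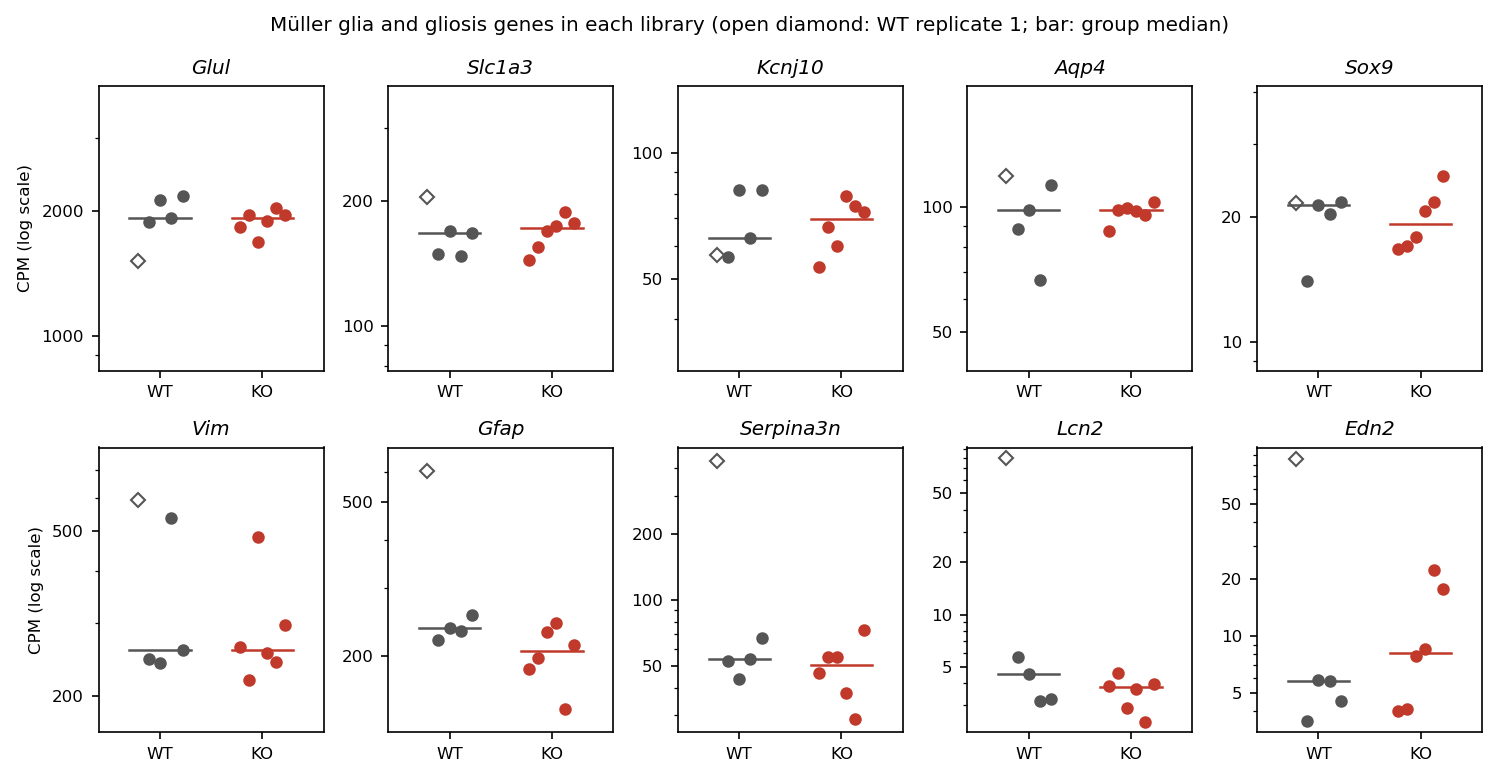
CPM (log axis) of each of the 10 genes in the 5 WT and 6 KO libraries, 1 point per library; the open diamond is WT replicate 1 and the bar is the median of the group. WT replicate 1 sits above all other libraries for 7 genes, by the widest margin for Lcn2 (80.1 CPM), Edn2 (85.9 CPM) and Serpina3n (432 CPM), while the remaining WT points overlap with the KO points in each panel.

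The homeostatic genes come first. Glul encodes glutamine synthetase, which turns glutamate into glutamine, and lies on chromosome 1 from 153899944 to 153909723 of GRCm38. Glul was at 1517, 1883, 2122, 1920 and 2170 CPM in WT replicates 1 to 5. In KO it ran from 1688 to 2030 CPM with a median of 1919 CPM. The groups overlapped, and the lowest of the 11 values was that of WT replicate 1. The log2 fold change of Glul was -0.02 with a standard error (SE) of 0.18, and -0.10 (SE 0.18) without WT replicate 1.

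Slc1a3 encodes GLAST, the glutamate transporter of Müller glia, and lies on chromosome 15 from 8634124 to 8710764. Slc1a3 was at 204.8, 149, 169, 147 and 167 CPM in the WT libraries. In KO it ran from 144 to 188 CPM with a median of 172 CPM. The highest value was again in WT replicate 1, and 3 KO libraries exceeded WT replicates 2 to 5. Its log2 fold change was 0.00 (SE 0.12), and 0.09 (SE 0.12) without WT replicate 1. Within the age series every KO library exceeded every WT library for Slc1a3, as did 5.87% of all genes tested, and the log2 fold change there was 0.16 with an adjusted p of 1.00 in edgeR's likelihood-ratio test.

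Kcnj10 encodes Kir4.1, the potassium channel through which Müller glia buffer potassium, and lies on chromosome 1 from 172341210 to 172374085. Kcnj10 was at 56.8, 56.3, 81.9, 62.8 and 81.5 CPM in WT, and ran from 53.2 to 79.0 CPM with a median of 69.4 CPM in KO. The 2 highest values belonged to WT replicates 3 and 5, and the groups overlapped along nearly their whole range. Between genotypes the log2 fold change was -0.01 (SE 0.15) for this gene, which holds 2 of the 4 seed matches printed above.

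Aqp4 encodes the water channel that lies beside Kir4.1 in the endfeet of Müller glia and astrocytes. Aqp4 was at 118.5, 88.7, 98.6, 66.6 and 113 CPM in WT, and its KO values were close together, from 87.8 to 102.7 CPM with a median of 98.2 CPM. Both extremes were WT libraries, replicate 1 at the top and replicate 4, the library with the most lens RNA, at the bottom. KO and WT differed by a log2 fold change of 0.00 (SE 0.14), and 0.08 (SE 0.14) without WT replicate 1.

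Sox9 encodes a transcription factor that marks Müller glia and astrocytes and lies on chromosome 11 from 112782224 to 112787760. Sox9 was at 21.6, 14.0, 21.4, 20.3 and 21.7 CPM in WT, and ran from 16.7 to 25.1 CPM with a median of 19.3 CPM in KO. WT replicate 2 was the lowest and KO replicate 6 the highest. For Sox9 the log2 fold change was 0.00 (SE 0.16), and 0.04 (SE 0.17) without WT replicate 1.

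Other markers of Müller glia were read in the same fit. Of 16 such genes, all tested, 0 were called, beside 0.00634% of all genes tested. At an unadjusted p under 0.05, 0 were lower in KO, beside 1.77% of all genes, and 0 were higher, beside 0.323%. Their median log2 fold change was -0.02 (-0.03 without WT replicate 1). The 4 most abundant by CPM were Apoe, Clu, Dkk3 and Slc38a3. Apoe, the lipid carrier made by glia, was at 1954 CPM in WT replicate 1, from 925 to 1110 CPM in WT replicates 2 to 5, and from 826 to 1023 CPM in KO. Clu, a secreted chaperone, was at 1475 CPM in WT replicate 1, from 696 to 1090 CPM in the other WT libraries, and from 651 to 1085 CPM in KO. Dkk3, a secreted relative of Wnt inhibitors, and Slc38a3, a glutamine transporter, were not highest in that library, at 743 and 424 CPM, and had log2 fold changes of -0.05 (SE 0.16) and -0.01 (SE 0.17). Of the 12 partners in glutamate, potassium and water handling, 11 were tested and 0 were called, beside 0.00634% of all genes. Their median log2 fold change was -0.05. Among these, Slc1a2, the glutamate transporter GLT-1, had a log2 fold change of 0.04 (SE 0.16), Dmd, dystrophin, 0.11 (SE 0.11) and Dag1, dystroglycan, -0.18 (SE 0.16).

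The filament genes differed more among libraries. Vim encodes vimentin, an intermediate filament protein of Müller glia that is also abundant in lens and in connective tissue, and lies on chromosome 2 from 13573927 to 13582826. Vim was at 593, 245, 241, 538 and 259 CPM in WT replicates 1 to 5. In KO it ran from 219 CPM to 482.5 CPM (replicate 3), with a median of 259 CPM. The 4 highest values belonged to WT replicate 1 and to the 3 libraries with raised lens RNA, WT replicate 4, KO replicate 3 and KO replicate 6 (297 CPM), and these occur in both genotypes. For Vim the log2 fold change was -0.36 (SE 0.31), and -0.13 (SE 0.30) without WT replicate 1. The part of lens RNA in the Vim values was not tested.

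Gfap encodes glial fibrillary acidic protein, which astrocytes make at all times and Müller glia mainly in gliosis, and lies on chromosome 11 from 102887336 to 102900912. Gfap was at 602.6, 219.9, 236, 232 and 255 CPM in WT. In KO it ran from 145 CPM (replicate 5) to 243.5 CPM, with a median of 205 CPM. WT replicate 1 was 2.36-fold above the next library, and the remaining values of the groups overlapped, with 4 of 6 KO libraries below WT replicates 2 to 5. The log2 fold change was -0.61 (SE 0.28), with an unadjusted p of 0.0269 and an adjusted p of 1.00 in edgeR's likelihood-ratio test. A two-sided exact permutation test of log2 CPM over the 11 libraries gave an unadjusted p of 0.0325, the lowest of the 10 genes tested in this way, where the smallest possible value is 0.00216. Without WT replicate 1 the log2 fold change of Gfap was -0.22 (SE 0.16), and the exact permutation p was 0.119. That p also exceeded 0.05 without WT replicate 5 or without KO replicate 1, 2, 5 or 6, where it lay between 0.0571 and 0.0794.

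Gfap RNA also comes from astrocytes, and oligodendrocyte genes were read beside it as markers of optic nerve tissue. The summed level of 10 oligodendrocyte genes was 1018 CPM in WT replicate 1, the lowest of all libraries, and 1490 CPM in KO replicate 5, the lowest of the other 10, which ranged up to 3443 CPM. KO replicate 5 also had the lowest Gfap. Over the 10 libraries without WT replicate 1, Pearson's r between Gfap and each oligodendrocyte gene, on log2 CPM centred by genotype, lay between 0.48 (Cldn11) and 0.76 (Mag). With WT replicate 1 it lay between -0.61 (Mobp) and -0.23 (Olig2). These r values are descriptions across libraries that share their dissection, and the part of optic nerve tissue in the Gfap values was not tested.

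**Figure D2:**
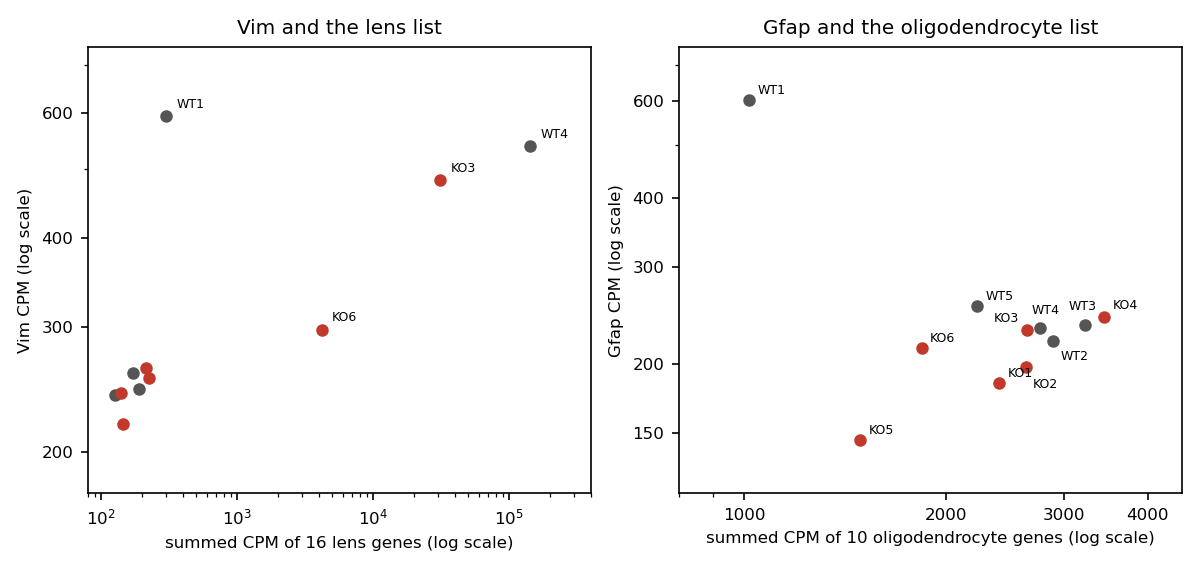
Vim against the summed CPM of 16 lens genes (left) and Gfap against the summed CPM of 10 oligodendrocyte genes (right), all axes logarithmic, 1 point per library, grey for WT and red for KO. WT replicate 4, KO replicate 3 and KO replicate 6 join high lens RNA with high Vim, and WT replicate 1 stands apart in both panels, with 593 CPM of Vim at little lens RNA and 603 CPM of Gfap at the lowest oligodendrocyte RNA.

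Serpina3n encodes a secreted protease inhibitor that is raised in reactive astrocytes, and lies on chromosome 12 from 104406729 to 104414329. It belongs to a cluster of similar genes, among which RSEM divides shared reads. Serpina3n was at 432, 53.0, 43.9, 54.0 and 67.1 CPM in WT, and ran from 28.7 to 73.5 CPM with a median of 50.9 CPM in KO. WT replicate 1 was 5.88-fold above the next library, and all other values overlapped between the groups. Its log2 fold change was -1.40 (SE 0.57) with an unadjusted p of 0.0152 and an adjusted p of 1.00 in the likelihood-ratio test of edgeR. Without that library it was -0.14 (SE 0.24).

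Lcn2 encodes lipocalin 2, an iron-siderophore carrier of reactive glia and also of neutrophils and epithelia, and lies on chromosome 2 from 32384633 to 32388252. Lcn2 was at 80.1, 5.66, 4.54, 3.16 and 3.23 CPM in WT, and ran from 2.40 to 4.62 CPM with a median of 3.79 CPM in KO. The gap between WT replicate 1 and the next library was 14.2-fold, the second widest among the 15767 genes tested. The log2 fold change was -2.43 (SE 0.78) with an unadjusted p of 0.00227 and an adjusted p of 1.00 in edgeR's likelihood-ratio test, and -0.21 (SE 0.25) without WT replicate 1. The 6 neutrophil genes summed to 61.2 CPM in WT replicate 1, against 1.57 to 14.04 CPM in the other 10 libraries. Of these, 2 exceeded the next library by more than 2-fold there, Ltf (lactoferrin) at 52.8 CPM against 0.87 to 11.95 CPM elsewhere and S100a9 at 7.63 CPM against 0.23 to 2.21 CPM. The other 4, S100a8 (0.50 CPM), Camp (0.21 CPM), Retnlg (0.11 CPM) and Ngp (0 CPM), were within the range of the other libraries. Of the 8 ocular surface genes, 4 were highest in that library. Krt15 (1591 CPM, against 126 to 778 CPM elsewhere) and Krt14 (371 CPM, against 18.99 to 146 CPM) were so by more than 2-fold. Krt12 was at 4.26 CPM there, against 406 to 3514 CPM elsewhere, and Krt5, Elf5 and Perp lay within the range of the other libraries. The 8 genes summed to 4901 CPM there, against 1178 to 8242 CPM elsewhere. The part of neutrophils or epithelium in the Lcn2 value was not tested.

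Edn2 encodes endothelin 2, the peptide that stressed photoreceptors make, and lies on chromosome 4 from 120161206 to 120167360. Edn2 was at 85.9, 3.57, 5.83, 5.82 and 4.56 CPM in WT replicates 1 to 5, and at 4.02, 4.12, 7.81, 8.50, 22.4 and 17.7 CPM in KO replicates 1 to 6. WT replicate 1 was the highest library by 3.84-fold, but 4 of the 6 KO libraries exceeded WT replicates 2 to 5. The direction between genotypes therefore turned on 1 library, with a log2 fold change of -0.98 (SE 0.82) with all libraries and 1.12 (SE 0.48) without WT replicate 1. The unadjusted p values were 0.235 and 0.025, and the adjusted p was 1.00 in both fits of edgeR's likelihood-ratio test. The exact permutation p without WT replicate 1 was 0.171.

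Edn2 was the only one of the 10 genes called within a library series. In the age series, with 3 WT and 3 KO libraries, 1 of the 10 genes was called at an adjusted p under 0.1, beside 0.237% of all genes, and 0.0197% of all genes were called as higher in KO. The log2 fold change of Edn2 there was 1.59 with an adjusted p of 0.0225 in edgeR's likelihood-ratio test. Every KO library exceeded every WT library, as was so for 5.87% of all genes tested. An exact permutation test gave p = 0.1, the smallest value that 3 libraries against 3 allow. The call was lost when WT replicate 5 (1.48, adjusted p = 0.311), KO replicate 5 (1.28, adjusted p = 0.764) or KO replicate 6 (1.52, adjusted p = 0.122) was left out, in fits chosen after seeing the data. In the mouse number series, where WT consists of replicates 1 and 2, the log2 fold change was -3.07 with an adjusted p of 0.978, and 0 of the 10 genes were called, beside 0.0132% of all genes. At an unadjusted p under 0.05 in that series, 4 of the 10, Gfap, Serpina3n, Lcn2 and Edn2, were lower in KO (3.26% of all genes) and 0 higher (0.694%), whereas in the age series 0 were lower (3.39%) and 1, Edn2, was higher (0.683%). The difference between the series, tested as an interaction, was 4.66 on the log2 scale, with an unadjusted p of 9.87e-05 and an adjusted p of 0.321 in edgeR. It was 3.38 for Lcn2 (unadjusted p = 0.000824) and 1.98 for Serpina3n (unadjusted p = 0.0246) in the same test. WT replicate 1, in the mouse number series, is the highest library for each of these genes. The other WT library of that series, replicate 2, had Edn2 at 3.57 CPM, against 4.02 to 7.81 CPM in KO replicates 1 to 3. Xist stood over 100 CPM in 2 of the 3 WT libraries of the age series and in no KO library. WT replicate 4 is the only WT library there with low Xist, and the part of sex in the Edn2 difference was not tested. Other tissues differed in that series as well. At an unadjusted p under 0.05, 11 of 14 lens genes tested (median log2 fold change -5.45) and 5 of 6 fibroblast and sclera genes (median -0.99) were lower in KO, beside 3.39% of all genes, and 1 of 4 adipocyte genes, Cfd (adipsin, named after its value had been seen), was called as lower in KO (adjusted p = 0.0764 in edgeR's likelihood-ratio test). The summed lens level was 141800 CPM in WT replicate 4 of that series, against 126 and 173 CPM in WT replicates 3 and 5. In KO replicates 4 to 6 it was 224, 140 and 4191 CPM, so WT replicate 4 alone stood above the KO libraries. The part of these tissues in the Edn2 difference was not tested.

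**Figure D3:**
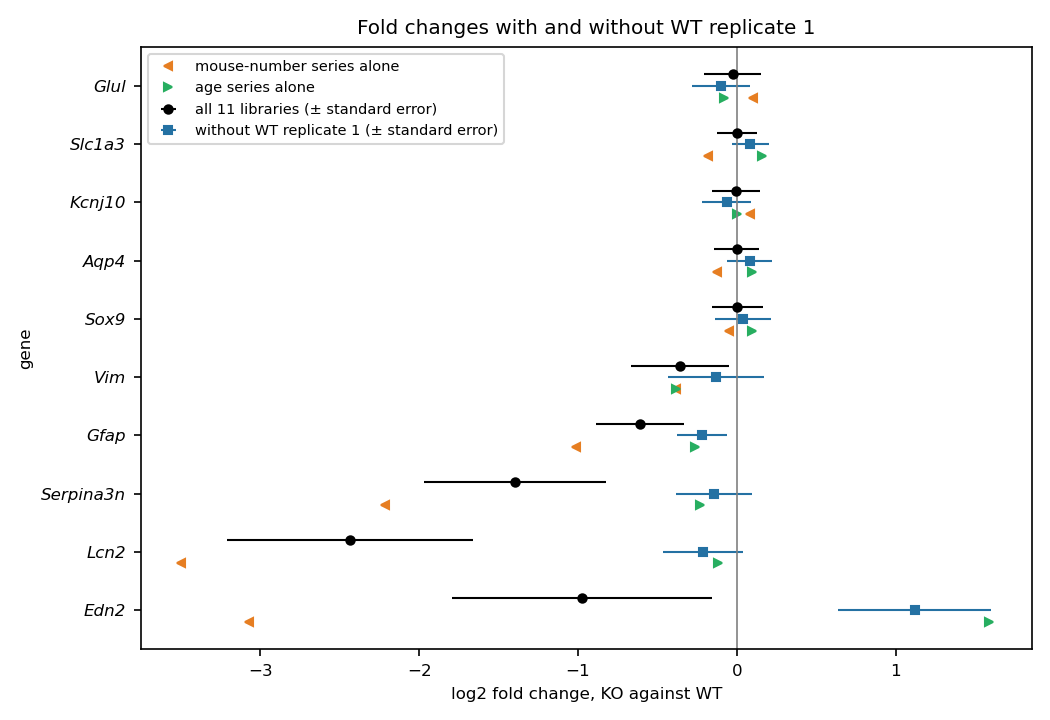
Log2 fold change of KO against WT for the 10 genes with all 11 libraries (black, bar: SE), without WT replicate 1 (blue, bar: SE) and within each library series alone (triangles, no error drawn). The 5 homeostatic genes lie between -0.18 (Slc1a3, mouse number series) and 0.16 (Slc1a3, age series). Gfap, Serpina3n and Lcn2 move towards 0 without WT replicate 1, and Edn2 changes its sign from -0.98 to 1.12.

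**Figure D4:**
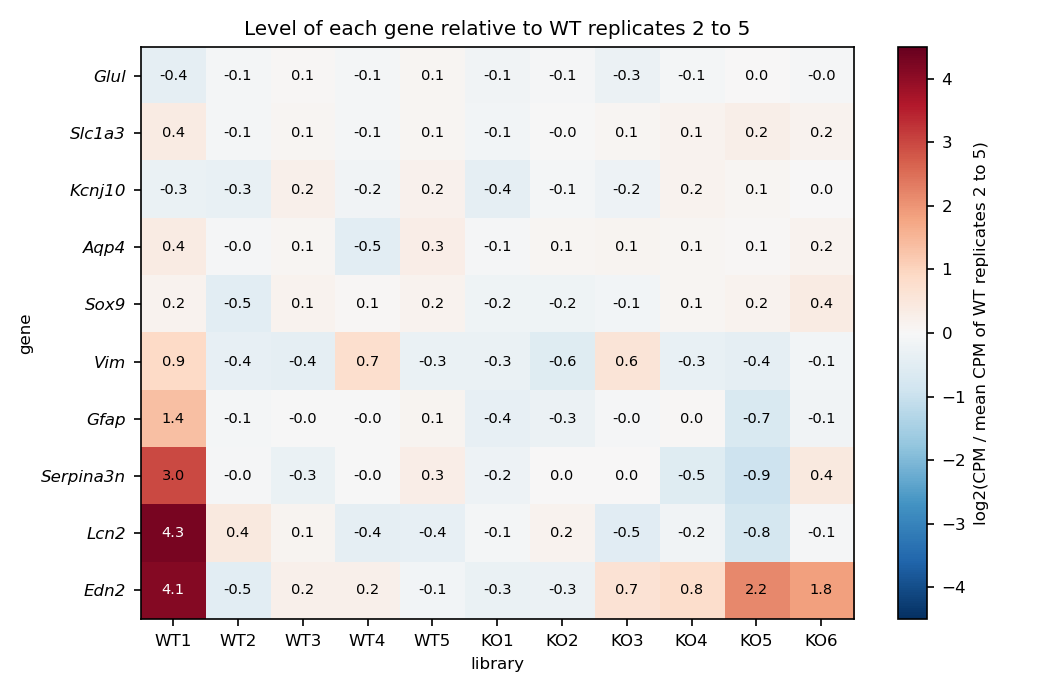
Log2 of the CPM of each gene (rows) in each library (columns) over its mean CPM in WT replicates 2 to 5. WT replicate 1 is high for Gfap, Serpina3n, Lcn2 and Edn2 and not for Glul or Kcnj10, and Edn2 is the only row that is also raised in KO replicates 5 and 6 (22.4 and 17.7 CPM).

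In WT replicate 1, 4 of the gliosis genes were high, and the homeostatic genes lay between 0.75-fold and 1.30-fold of the mean of WT replicates 2 to 5. Of these homeostatic genes, Glul was lowest and Slc1a3 and Aqp4 were highest in that library. Against the mean of WT replicates 2 to 5 the level of WT replicate 1 was 19.3-fold for Lcn2, 17.4-fold for Edn2, 7.93-fold for Serpina3n and 2.56-fold for Gfap. Against the same mean it was 1.85-fold for Vim, 1.30-fold for Slc1a3, 1.29-fold for Aqp4, 1.12-fold for Sox9, 0.805-fold for Kcnj10 and 0.75-fold for Glul. It was the highest library for 7 of the 10 genes, beside 21.4% of all genes tested. For 4 of the 10 it exceeded all other libraries by more than 2-fold, as it did for 0.837% of all genes, and no other library did so for any of the 10. This is a description of 1 library, with no test.

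Other genes of the same response were read from lists. Of 14 further genes of reactive glia, 10 were highest in WT replicate 1, 5 of them by more than 2-fold over the next library. Timp1, a secreted protease inhibitor, was at 15.04 CPM there and between 1.12 and 2.16 CPM elsewhere, Cebpd, a transcription factor of the acute response, at 47.5 CPM against 5.78 to 16.5 CPM, and Steap4, a metalloreductase, at 45.1 CPM against 5.19 to 17.8 CPM, and these 3 were singled out after their values had been seen. By genotype, 13 of the 14 passed the filter and 0 were called, beside 0.00634% of all genes. At an unadjusted p under 0.05, 3 were lower in KO, beside 1.77% of all genes, and the median log2 fold change was -0.34. Without WT replicate 1, 2 were lower at that p, beside 0.841% of all genes, and the median was -0.04. The most abundant of the list were Cp (ceruloplasmin, log2 fold change -0.34, SE 0.22), Hspb1 (a small heat shock protein, -1.36, SE 0.72), Serping1 (the C1 inhibitor, -0.48, SE 0.25) and Synm (synemin, a filament protein, -0.25, SE 0.16). Hspb1 was highest, at 545 CPM, in WT replicate 4, which holds the most lens RNA, and lay between 23.5 and 108 CPM in the other libraries.

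Among 13 genes of endothelin and LIF–STAT3 signalling, 7 were highest in WT replicate 1. Of the most abundant, Stat3 was at 232 CPM in that library and between 106 and 128 CPM in the other 10, while Jak1, the kinase before it, was at 156 CPM there and from 146 to 172 CPM elsewhere. Il6st, the shared receptor chain gp130, was at 158 CPM there and from 112 to 145 CPM elsewhere, and Lifr, the LIF receptor, was at 73.7 CPM there and from 69.7 to 99.9 CPM elsewhere. The ligand Lif (4.90 CPM, against 0.65 to 1.40 CPM), the STAT3 targets Socs3 (25.1 CPM, against 3.97 to 6.88 CPM) and Bcl3 (15.7 CPM, against 1.17 to 3.54 CPM), all 3 named after their values had been seen, were each over 2-fold above the next library. By genotype 0 of 13 were called, beside 0.00634% of all genes. At an unadjusted p under 0.05, 0 were lower in KO (1.77% of all genes) and 0 were higher (0.323%). The median log2 fold change was -0.18, or 0.04 without WT replicate 1. Without that library 1 of the 13, Bcl3, had an unadjusted p under 0.05 and was higher in KO, beside 0.185% of all genes, with a log2 fold change of 0.59 and an adjusted p of 1.00 in edgeR's likelihood-ratio test. The growth factor Fgf2, also singled out afterwards, was highest in WT replicate 1 (8.62 CPM) and next in KO replicate 5 (5.66 CPM), against 1.32 to 2.30 CPM in the other 9 libraries, and KO replicate 5 is also the library with the highest Edn2 outside WT replicate 1. Of the receptor genes for endothelin, Ednra was highest in WT replicate 1 (9.05 CPM, against 5.09 to 8.91 CPM elsewhere), and Ednrb had its lowest levels in KO replicate 5 (40.7 CPM) and WT replicate 1 (41.5 CPM), below 50.9 to 75.8 CPM in the other 9 libraries.

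**Figure D5:**
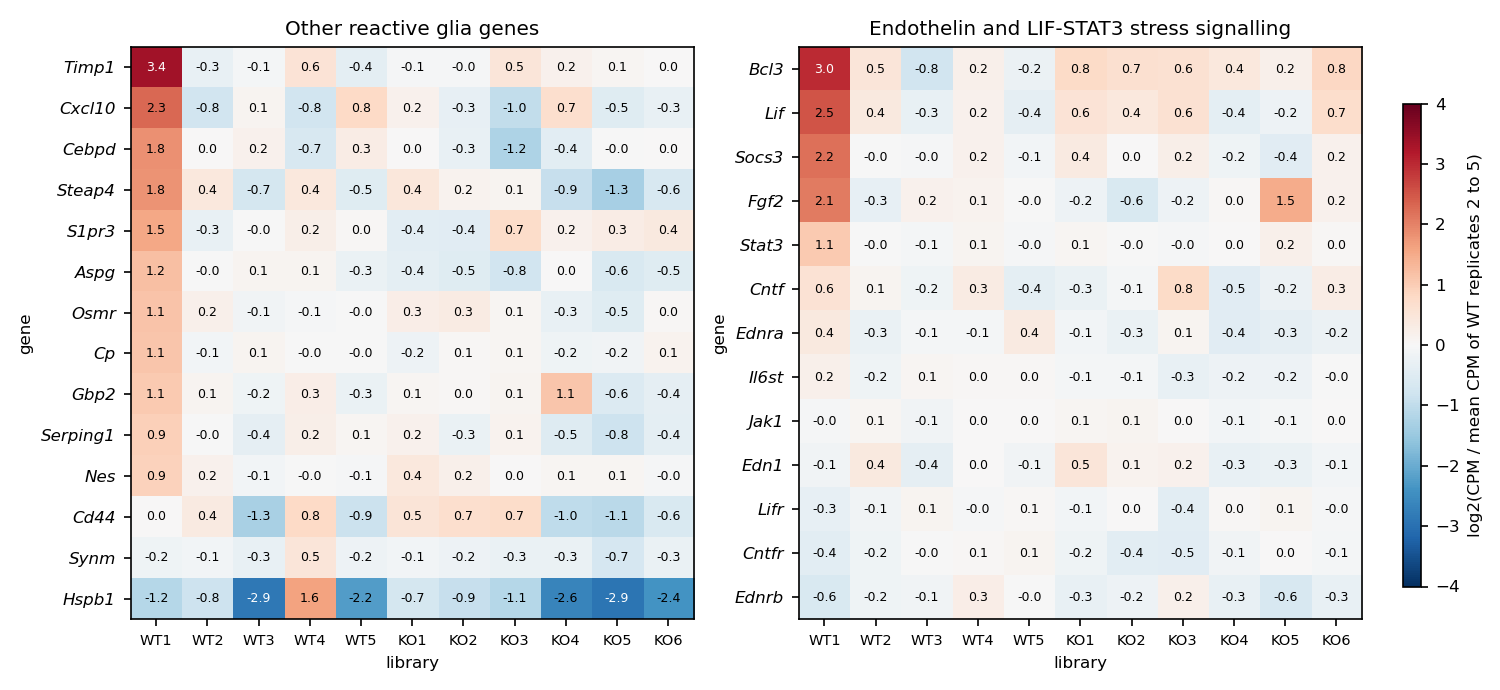
Log2 of the CPM of 14 further reactive glia genes (left) and 13 genes of endothelin and LIF–STAT3 signalling (right) in each library (columns) over the mean CPM of WT replicates 2 to 5. The raised values lie mainly in the column of WT replicate 1, such as Timp1 (15.04 CPM) and Bcl3 (15.7 CPM), with Fgf2 also raised in KO replicate 5 (5.66 CPM) and Hspb1 in WT replicate 4 (545 CPM).

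Promoters were also read, as a description of their letters. The STAT motif TTCNNNGAA, which reads the same on both strands, was searched from 250 bases before to 50 bases after the RefSeq start site, where 8 of the 10 genes had an entry. It was found in 2 of the 8, Gfap and Slc1a3, and in 8.3% of 32851 promoters. Both places are printed as the matches among these 8, and their part in the level of any gene was not tested. The windows of 30 bases are on the strand of the gene, with the motif in capitals, at chr11:102897194-102897223 (minus strand, Gfap, motif from -2 to 6 relative to the start site) and chr15:8710895-8710924 (minus strand, Slc1a3, motif from -96 to -88) of GRCm38.
Gfap promoter: caggctattcaatgggggtgcTTCCAGGAA
Slc1a3 promoter: acttaattgtattcaggatccTTCCAAGAA
The motif letters were not in these windows of Lcn2, Serpina3n, Edn2, Vim, Glul and Kcnj10, which says nothing of sites elsewhere.

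Markers of other cell types in WT replicate 1 were read beside these values. Microglia and macrophage genes summed to 240.5 CPM there, with 7 of 8 highest in that library, against 96.0 to 124 CPM in the other 10. Rod genes summed to 28940 CPM, the lowest of all libraries, against 33750 to 44770 CPM. Retinal astrocyte genes summed to 314 CPM there, against 319 to 366 CPM in the other WT libraries and 249 to 361 CPM in KO. Of these 5 genes, 2 were highest there, Pax2 (1.74 CPM, against 0.36 to 0.95 CPM) and Aldh1l1 (27.9 CPM, against 17.9 to 23.3 CPM). Gja1 (189 CPM, the largest part of the sum), S100b and Pdgfra lay within the range of the other libraries. Adipocyte genes summed to 587 CPM, the highest of all libraries, against 52.4 to 361 CPM. Over the 13 marker lists of other cell types 0 genes were called between KO and WT with all libraries, beside 0.00634% of all genes. The median log2 fold changes of the lists ran from -2.27 (lens) to 0.10 (rod). The part of immune cells, rod RNA or dissection in the high gliosis genes of that library was not tested. The genes with the profile most like Gfap, by Pearson's r on log2 CPM centred by genotype over 11 libraries, were Icam1 (0.98), Galnt6 (0.96), Ctss (0.95), Itgb2 (0.94) and Cd53 (0.94). Icam1 encodes an adhesion molecule, Ctss a protease of microglia and macrophages, and Itgb2 and Cd53 surface proteins of leukocytes. Without WT replicate 1 the r values were 0.94, 0.93, 0.76, 0.76 and 0.86 in that order. The ranking then changed, with Icam1 and Galnt6 followed by Hapln2 (0.90), Gm26827 (0.88) and Clgn (0.87). Over 11 libraries Hapln2, Gm26827 and Clgn were at -0.49, -0.10 and -0.72. Serpina3n (0.92) and Lcn2 (0.89) were the members most like Gfap over 11 libraries, and without WT replicate 1 they were at 0.53 and 0.21.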

How the data were processed

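Total RNA of whole eyes, without lens and cornea according to the methods of the study, was sequenced in 11 libraries as 100-nt read pairs. The authors assigned the reads to Gencode mouse release M4 with RSEM 1.2.19 and deposited, per gene and library, an expected count (unscaled, fractional where reads fit several genes) and an FPKM value (scaled for effective length and library). The genome build and the aligner are not given in the sources used here. Gene symbols and positions are those of Gencode M21 on GRCm38, which matched 95.4% of identifiers.

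Expected counts were rounded to whole numbers, and a gene was kept where 5 or more of the 11 libraries reached 1 CPM. edgeR 4.0.16 in R 4.3.3 was used with TMM factors, a generalized linear model with genotype as the only term, and the likelihood-ratio test, with Benjamini-Hochberg adjustment over all genes tested and a threshold of 0.1. The generalized linear model, the filter and the threshold are those of the methods of the study, and rounding, TMM and the likelihood-ratio test are choices made here. The biological coefficient of variation was 26.1%. log2 CPM used a prior count of 2. Single genes were also compared by two-sided exact permutation tests over libraries, unadjusted, with 10 genes in the family. FPKM values served only to compare levels between genes. Total counts from 20282241 to 36317673 make 1 CPM about 20 read pairs or more, so low genes such as Lcn2 are less precise.

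Groups and replicate numbers came from the labels. Libraries were matched to the 2 series by their counts over the 63 genes of a supplementary table. No 2 libraries agreed within sampling noise. Sex entered no fit. The 10 genes, the 17 lists of related genes and markers, and the tests were chosen with earlier results of these data known. Named in the text are the 10 genes, the 4 genes with the highest mean CPM in each of 4 pathway lists, any gene called, marker genes on which a result turns, the 5 genes most like Gfap with and without WT replicate 1, Xist and Trpm1, and others only where stated. A gene that this rule names is not reported here. The results were recomputed with DESeq2 1.42.0 and the quasi-likelihood test of edgeR, with upper-quartile or no normalization factors, other filters and prior counts, FPKM with a pseudocount of 0.1, values per rod RNA, the replicate block, the library series, each library left out, and fits added after seeing the data. Mouse protein sequences were not used here.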

Additional observations from a re-analysis of the deposited data

Results flagged for a closer look

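In each genotype, the CPM of each of the 10 genes was examined for 1 library far from the rest of its group, by Dixon's test at the 95% level. Of 20 groups of values 6 were flagged, where chance flags about 1 in 20 among independent groups of normally distributed values. The groups here share their libraries, so the number of flags does not measure an excess over chance. In WT, replicate 1 stood apart for Gfap at 602.6 CPM (219.9 to 254.9 CPM in the other WT libraries), for Edn2 at 85.92 CPM (3.57 to 5.83 CPM), for Lcn2 at 80.14 CPM (3.16 to 5.66 CPM) and for Serpina3n at 432.1 CPM (43.9 to 67.1 CPM). WT replicate 2 was low for Sox9, at 14.02 CPM, where the other WT libraries lay between 20.3 and 21.7 CPM. In KO, replicate 3 was high for Vim, at 482.5 CPM, where the other KO libraries lay between 219 and 297 CPM. That library also held 31030 CPM of lens genes, and the part of lens RNA in its Vim was not tested.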

How the results depend on the processing

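The number of the 10 genes called between KO and WT was 0 under all alternatives over both series, the replicate block included, and 1 (Edn2) within the age series. Over all genes, 1 gene was called with all libraries. That number was 0 with the quasi-likelihood test of edgeR, 2 with DESeq2 (where Lcn2 and Serpina3n had no adjusted p), 2 with a filter of 1 count in any library, 10 with the library series as covariate, 2 within the mouse number series, 36 within the age series, and between 1 and 11 when 1 library was left out. The replicate numbers did not pair the libraries, since only 3 of 5 same-numbered pairs deviated together (r from -0.33 to 0.63). With the replicate block, which leaves out KO replicate 6, 10 genes were called, and the log2 fold changes that changed sign were -0.0072 for Slc1a3, 0.0087 for Aqp4, -0.063 for Sox9 and 0.12 for Edn2. In the paired exact test, they were -0.0079 for Slc1a3, -0.021 for Kcnj10, -0.063 for Sox9 and -0.19 for Edn2.

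Other changes of sign were small except for Edn2 and Slc1a3, and the cause was not tested. Without TMM factors the log2 fold changes were 0.021 for Glul, 0.033 for Aqp4 and 0.037 for Kcnj10, and under upper-quartile normalization 0.0084 for Aqp4 and 0.0041 for Kcnj10. Aqp4 was at 0.0025 with a filter of 1 count. With the library series as covariate Kcnj10 was at 0.035. Within the mouse number series Glul was at 0.10, Slc1a3 at -0.18, Kcnj10 at 0.082 and Sox9 at -0.050. Within the age series Aqp4 was at 0.093 and Edn2 at 1.59. With the series as covariate and WT replicate 1 left out, a fit added after seeing the data, Aqp4 was at 0.095, Kcnj10 at 0.027 and Edn2 at 1.24 (unadjusted p = 0.00029, adjusted p = 0.537 in edgeR). On the difference of mean log2 CPM, Glul changed sign on the FPKM scale (0.038) and without TMM factors (0.035), and per rod RNA the differences were -0.083 for Slc1a3, -0.064 for Aqp4, -0.090 for Kcnj10, -0.083 for Sox9 and -0.079 for Edn2. The exact permutation p of Gfap was above 0.05 on the FPKM scale (0.0974), without TMM factors (0.0952), with the block (0.188) and with any of 6 libraries left out (WT replicates 1 and 5, KO replicates 1, 2, 5 and 6). It was below 0.05 per rod RNA (0.00649), within the library series (0.04), with a prior count of 0.5 (0.0325) and with any of the other 5 libraries left out (0.0159 to 0.0476).

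With 1 library left out in turn, log2 fold changes lay between -0.71 and -0.22 for Gfap, -0.099 and 0.022 for Glul, -0.037 and 0.086 for Slc1a3, -0.56 and -0.13 for Vim, -0.10 and 0.081 for Aqp4, -0.066 and 0.070 for Kcnj10, -0.097 and 0.046 for Sox9, -1.33 and 1.12 for Edn2, -2.71 and -0.21 for Lcn2 and -1.62 and -0.14 for Serpina3n. For Vim, Gfap, Serpina3n, Lcn2 and Edn2, the upper end of the range is the fit without WT replicate 1. The difference of mean log2 CPM ran from -0.60 to -0.24 for Gfap, -0.099 to 0.030 for Glul, -0.036 to 0.083 for Slc1a3, -0.44 to -0.092 for Vim, -0.10 to 0.11 for Aqp4, -0.061 to 0.074 for Kcnj10, -0.11 to 0.054 for Sox9, -0.30 to 0.84 for Edn2, -1.36 to -0.20 for Lcn2 and -1.01 to -0.19 for Serpina3n. Within the age series, Edn2 ran from 1.28 to 1.89. The median of the 14 reactive glia genes ran from -0.43 to -0.04, and that of the 13 signalling genes from -0.23 to 0.04. A log2 fold change near 0 with a SE of 0.12 to 0.18, as for the 5 homeostatic genes, leaves small differences unresolved with 5 and 6 libraries. Outside WT replicate 1, levels were low for Lcn2 (2.40 to 5.66 CPM) and Edn2 (3.57 to 22.4 CPM).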
